A study of Homo sapiens with 4 samples.

Results

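The genes described here encode heterogeneous nuclear ribonucleoproteins (hnRNPs), serine and arginine-rich (SR) splicing factors and other regulators of pre-mRNA splicing. They were chosen by name: 42 genes were listed, and 40 of them had at least 1 probe set annotated to that gene alone, of 19775 genes with such a probe set. The other genes, SRSF2 and HNRNPH2, were on probe sets annotated to several genes. The 40 genes comprised 17 hnRNP genes, 11 SR and SR-like genes, 3 genes of 3′ splice site recognition and 9 other regulators, on 173 probe sets. Of these, 158 probe sets and 39 genes reached a log2 level of 6, taken as measured, on at least 1 array. MBNL3, a muscleblind-like protein, stayed below that level on all arrays.

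RNA came from SUM159, an established line of human breast cancer cells, mesenchymal in character. It carried the doxycycline-inducible vector pTRIPZ with miR-100. Flow cytometry parted the cells by the activity of aldehyde dehydrogenase (ALDH), a feature used to enrich stem-like cells, and both fractions were cultured in suspension. The 4 groups were ALDH+ DOX, ALDH+ control, ALDH- DOX and ALDH- control, with 1 array each, and all of them carry the construct. The titles give doxycycline for 10 h, whereas the sample descriptions give doxorubicin, a different drug, and 13 h, so DOX is used here for the treated cells. The stated purpose was to search for targets of the microRNA in the stem-like and the remaining cells. No doxycycline-treated cells lacking the vector were analysed here, so that effects of the agent and of the microRNA cannot be told apart. The mature microRNA is not measured by these arrays.

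A difference between 2 arrays has no p-value here, since each group is a single array. The ALDH+ DOX array stood apart: 422 genes were 2-fold or more higher and 280 lower in ALDH+ DOX than in ALDH+ control cells, of 12151 measured, against 32 higher and 6 lower of 11819 in the ALDH- pair. The median level of all measured genes was 9.82 on the ALDH+ DOX array, 9.69 on the ALDH+ control, 9.70 on the ALDH- DOX and 9.71 on the ALDH- control array, so that differences in ALDH+ cells are relative to a shift of 0.13 in that median. The mesenchymal genes VIM, CD44, FN1, ZEB1 and CDH2 lay between 11.07 and 13.79 on the log2 scale on all arrays. CDH1, EPCAM, ESR1 and PGR were below 6, while ERBB2 was between 9.22 and 10.17. Of markers of other cell types, 1 of 5 measured immune genes reached 6, MS4A1 at 6.21 on the ALDH+ DOX array, while PTPRC was below it. PECAM1 and KDR of 4 endothelial genes and HBB of 3 erythroid and platelet genes reached 6 on some arrays. The log2 of the summed immune markers was 7.37 on the ALDH+ DOX, 6.91 on the ALDH+ control, 6.43 on the ALDH- DOX and 6.52 on the ALDH- control array, and that of the erythroid and platelet markers 7.01, 7.30, 6.38 and 6.46 in the same order. The log2 of the summed endothelial markers was 8.74 on the ALDH+ DOX, 8.70 on the ALDH+ control, 9.76 on the ALDH- DOX and 9.92 on the ALDH- control array. Their part in the results was not tested.

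Splicing removes introns from nuclear transcripts. SR proteins bind exons through RNA recognition motifs and use their arginine and serine-rich tails to recruit the spliceosome, whereas hnRNPs coat nascent transcripts and often make exons less used. U2AF1, U2AF2 and SF3B1 recognise the 3′ splice site and the branch point. Many SR and hnRNP genes limit their own protein by splicing in exons that expose the transcript to decay, so that 1 gene gives several transcripts.

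The microRNA of the construct is shown because it is the agent that DOX is meant to induce. RefSeq's mature sequences on GRCh38.p14 are printed 5′ to 3′ with the seed, bases 2 to 8, in capitals. The labels name no arm, and the 5p arm and its relatives share 1 seed.
hsa-miR-100-5p: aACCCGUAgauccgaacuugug
hsa-miR-99a-5p: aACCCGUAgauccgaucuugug
hsa-miR-99b-5p: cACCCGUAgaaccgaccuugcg
The miR-100 locus lies on the minus strand at chr11:122152275-122152296 for this arm, those of its relatives on the plus strand at chr21:16539101-16539122 (miR-99a) and chr19:51692618-51692639 (miR-99b).

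The brightest probe set of each splicing gene, that of highest average level, differed little between arrays. By a size rule of 2-fold, an absolute log2 difference of 1 with a level of 6 on at least 1 of the 2 arrays, none of the 39 genes was called in any of the 4 comparisons. Of all genes, this rule called 3.47% higher and 2.3% lower in ALDH+ DOX against ALDH+ control cells, and 0.271% higher and 0.0508% lower in ALDH- DOX against ALDH- control cells. It called 6.09% higher and 4.4% lower in ALDH+ control against ALDH- control cells, and 11.4% higher and 5.32% lower in ALDH+ DOX against ALDH- DOX cells. These shares were not matched for level, and most brightest probe sets of the splicing genes had a mean level above 12. Between 12 and 15, the rule called 0.633% of all 1579 probe sets lower in ALDH+ DOX against ALDH+ control cells, and 1 higher. These arrays measure bulk RNA, in which fewer cells of a kind and less RNA per cell cannot be told apart.

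MBNL1, a muscleblind-like regulator of alternative exons, had the smallest range, at 12.28 on the ALDH+ DOX array and 12.20 on each of the others. HNRNPUL1, an RNA-binding protein of the nucleus, lay at 11.56, 11.66, 11.62 and 11.60 in ALDH+ DOX, ALDH+ control, ALDH- DOX and ALDH- control cells. U2AF1, the small subunit that reads the end of the intron, lay at 12.75, 12.64, 12.75 and 12.76 in the same order. At the other end were MBNL2, with a range of 0.96, and HNRNPF, which binds G-rich sequence near regulated exons, with a range of 0.79. HNRNPF was at 9.83 in ALDH+ DOX and 10.62 in ALDH+ control cells, against 10.21 in ALDH- DOX and 10.34 in ALDH- control cells, on its only probe set.

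**Figure D1:**
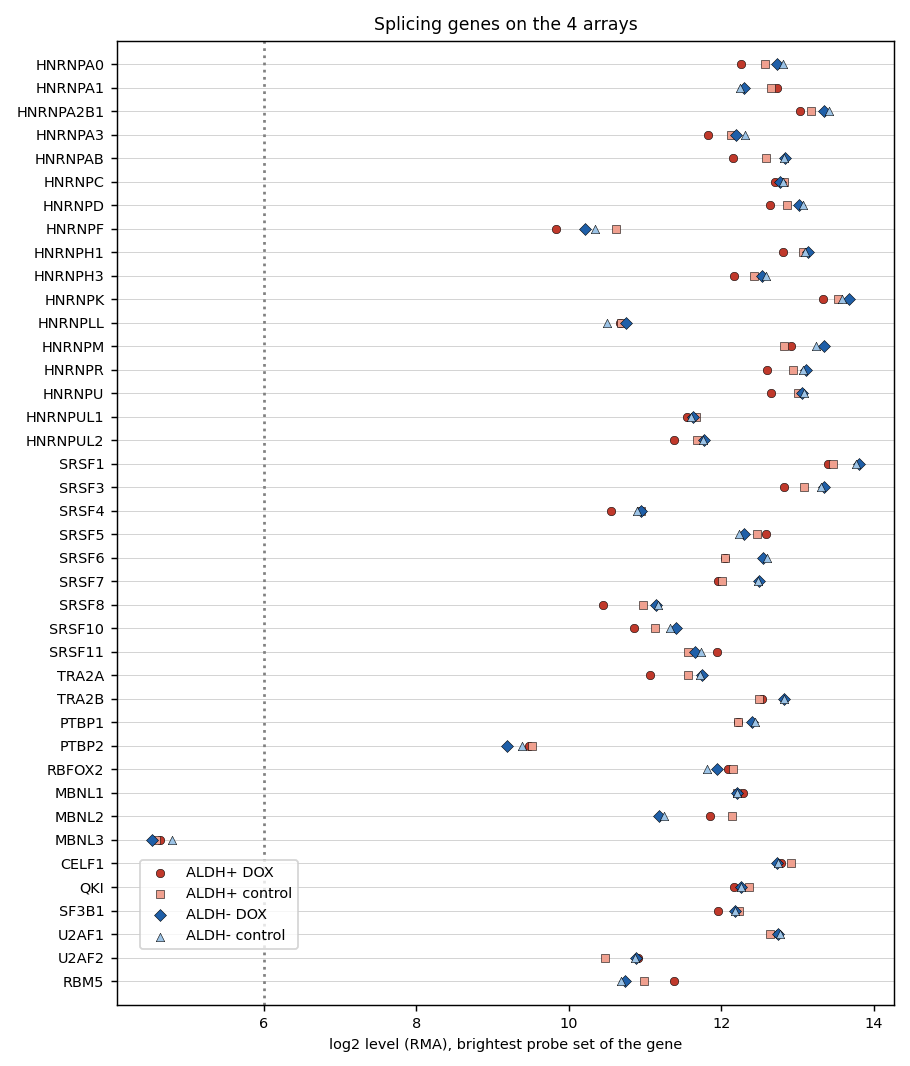
Log2 level (RMA) of the brightest probe set of each of the 40 splicing genes, 1 symbol for each of the 4 arrays, with a dotted line at the level of 6. The 4 symbols of a gene lie within 0.96 of each other for every measured gene, and MBNL3 alone lies below the line.

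Between the ALDH+ DOX and ALDH+ control arrays, probe sets of single genes parted. Of 156 measured probe sets of the splicing genes, 20 were 2-fold or more lower in ALDH+ DOX than in ALDH+ control cells and 2 were higher. Over all probe sets, 5.78% were called lower and 3.28% higher. The 20 probe sets belonged to 11 genes, and none of them was the brightest of its gene. On the ALDH+ DOX array 19 of the 20 had their lowest value of the 4 arrays. Their being called lower on that array makes this likely, and no share over all probe sets was computed. The median difference over all member probe sets was -0.13, against 0.05 over all probe sets, and over the member genes -0.15, against 0.12 over all genes. By role, the brightest probe sets had medians of -0.26 over 17 hnRNP genes, -0.07 over 11 SR genes, -0.05 over 8 other regulators and 0.11 over 3 genes of the 3′ splice site.

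SRSF6, an SR protein, showed the widest split. Its probe set 206108_s_at was at 5.96 in ALDH+ DOX and 9.78 in ALDH+ control cells, against 10.13 in ALDH- DOX and 10.18 in ALDH- control cells. Its other probe set, 208804_s_at, was at 12.05 in ALDH+ DOX and 12.04 in ALDH+ control cells, against 12.55 in ALDH- DOX and 12.60 in ALDH- control cells. The first differed by -3.82 between ALDH+ DOX and ALDH+ control cells and the second by 0.01. The first was low on the ALDH+ DOX array alone.

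Among the SR genes other than SRSF6, SRSF3, SRSF1, SRSF11 and SRSF5 had called probe sets in this comparison. In SRSF3, the smallest SR protein, 232392_at was at 8.49 in ALDH+ DOX and 9.89 in ALDH+ control cells, against 8.52 in ALDH- DOX and 8.86 in ALDH- control cells. A further SRSF3 probe set, 237485_at, was at 4.45 in ALDH+ DOX and 6.15 in ALDH+ control cells, against 6.5 in ALDH- DOX and 6.15 in ALDH- control cells. The remaining SRSF3 probe sets differed by -0.26 to -0.73. SRSF1, the founding SR protein, had 201741_x_at at 6.87 in ALDH+ DOX and 7.96 in ALDH+ control cells, against 8.67 in ALDH- DOX and 8.87 in ALDH- control cells, while 227164_at differed by 0.48.

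SRSF11 and SRSF5 rested on dim probe sets. SRSF11 had 236948_x_at at 5.31 in ALDH+ DOX and 6.59 in ALDH+ control cells, against 5.47 in ALDH- DOX and 5.31 in ALDH- control cells, and 213742_at at 11.72 in ALDH+ DOX and 10.88 in ALDH+ control cells, against 10.34 in ALDH- DOX and 10.40 in ALDH- control cells. SRSF5 had 210077_s_at at 5.20 in ALDH+ DOX and 6.24 in ALDH+ control cells, against 6.22 in ALDH- DOX and 5.99 in ALDH- control cells, with the others at -0.01 and 0.11. With levels under 6 set to 6, the called probe sets of SRSF11 and SRSF5, SRSF3 237485_at and CELF1 235297_at were at -0.59, -0.24, -0.15 and -0.11. SRSF8, a relative of SRSF2, had no call, but its probe sets ranged between -0.52 (214789_x_at) and 0.70 (238929_at).

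HNRNPH1, an hnRNP that binds runs of G, had 1 of 4 probe sets that stood apart. The probe set 213470_s_at was at 7.27 in ALDH+ DOX and 10.81 in ALDH+ control cells, against 9.95 in ALDH- DOX and 9.96 in ALDH- control cells, a difference of -3.54 in ALDH+ cells. The next, 213472_at, was at 7.99 in ALDH+ DOX and 8.89 in ALDH+ control cells, a difference of -0.89, and the brighter 201031_s_at and 213619_at differed by -0.26 and -0.40. All 4 differences were negative, and 1 of them passed 2-fold.

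HNRNPC, which binds U-rich sequence, held one of the 2 higher calls: 235500_at was at 7.42 in ALDH+ DOX and 6.42 in ALDH+ control cells, against 6.38 in ALDH- DOX and 6.59 in ALDH- control cells. Its probe set 200751_s_at differed by -0.83 and the brightest by -0.13, so that the gene's probe sets went both ways. This call and the higher one of QKI, 241938_at, came to 0.87 and 0.98 once each array was centred on its median over the measured genes. HNRNPR had no call, but its probe sets ranged between -0.76 (208765_s_at) and 0.46 (232004_at).

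The muscleblind genes, whose proteins control exons that switch during differentiation, parted likewise. MBNL1 had 201151_s_at at 8.51 in ALDH+ DOX and 10.62 in ALDH+ control cells, against 10.61 in ALDH- DOX and 10.76 in ALDH- control cells. A further MBNL1 probe set, 1555594_a_at, was at 8.06 in ALDH+ DOX and 9.49 in ALDH+ control cells, against 9.24 in ALDH- DOX and 9.39 in ALDH- control cells. Both were low on the ALDH+ DOX array alone. In MBNL2 the ALDH+ control array was the one that stood high: 205018_s_at was at 8.38 in ALDH+ DOX and 10.31 in ALDH+ control cells, against 8.91 in ALDH- DOX and 8.59 in ALDH- control cells. Its probe sets 205017_s_at and 1553536_at differed by -1.69 and -1.57 in ALDH+ cells, while 232138_at was at 0.63 and the brightest at -0.29. On the ALDH+ DOX array these 3 MBNL2 probe sets differed from the ALDH- DOX array by -0.53, 0.076 and -0.19.

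QKI, a STAR-family protein that regulates splicing and mRNA stability, had probe sets called in both directions. The lower group comprised 212263_at (-1.74), 1555154_a_at (-1.62), 214543_x_at (-1.56) and 212262_at (-1.30). The first of them was at 9.99 in ALDH+ DOX and 11.73 in ALDH+ control cells, against 11.28 in ALDH- DOX and 11.38 in ALDH- control cells. The brightest, 212265_at, differed by -0.20, whereas 241938_at was higher by 1.11, at 8.11 in ALDH+ DOX and 7.0 in ALDH+ control cells, against 7.03 in ALDH- DOX and 7.25 in ALDH- control cells. All 5 called QKI probe sets had their extreme value on the ALDH+ DOX array, which their being called there makes likely.

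CELF1, which binds GU-rich sequence in introns and mRNA tails, had 3 called probe sets out of 6 measured. They were 1555467_a_at (-1.23), 235297_at (-1.20) and 204113_at (-1.04), the last at 10.83 in ALDH+ DOX and 11.87 in ALDH+ control cells, against 11.62 in ALDH- DOX and 11.56 in ALDH- control cells. The brightest, 221743_at, differed by -0.12. For 235297_at the level in ALDH+ DOX cells was 4.91, which is background, so that the size is uncertain.

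RBM5, a regulator of exons in cell death genes, had probe sets that ranged between -0.20 (209936_at) and 0.96 (230742_at). The upper one was at 10.10 in ALDH+ DOX and 9.14 in ALDH+ control cells, against 8.69 in ALDH- DOX and 9.0 in ALDH- control cells. In RBFOX2, which binds UGCAUG, the probe sets 213901_x_at and 213898_at were at 0.93 and 0.73 and the brightest at -0.07. None of these RBM5 and RBFOX2 differences reached 2-fold.

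Of the 3′ splice site genes, U2AF1 had a lower probe set. Its 242499_at was at 6.10 in ALDH+ DOX and 7.52 in ALDH+ control cells, against 7.51 in ALDH- DOX and 7.51 in ALDH- control cells, and its other 3 probe sets differed by 0.11 to 0.34. U2AF2, the large U2AF subunit, and SF3B1, which holds the branch point in the U2 particle, had none called, with brightest probe sets at 0.44 and -0.28.

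In all, 15 of 37 splicing genes with at least 2 measured probe sets had probe sets whose ALDH+ DOX differences lay 1 or more apart, where the share of all such genes was 24.1%. The splicing genes have more probe sets, a median of 4 against 2, and among genes with 4 or more the count was 12 of 24, against 50.4% of all. The share near the background is no result about the splicing genes. In the same array pair, 11 of 37 had a brightest probe set that was not called beside another called lower, against 14.1% of all such genes, and 2 of 37 had another called higher, against 4.28%. These shares were not matched for the number of probe sets. More probe sets give more chances of such a call, so no excess is read from them. By mean level, the splicing gene probe sets called lower were 7 of 27 between 5 and 8 (6.71% of all probe sets), 9 of 29 between 8 and 10 (7.28%), 4 of 62 between 10 and 12 (4.10%) and 0 of 38 between 12 and 15 (0.633%). Probe sets of 1 gene on the same array were counted singly here. The 20 called came from 11 genes, so no excess is read from these counts either.

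Probe sets of control transcripts parted on the same array. For ACTB, the 3′ probe set was at 13.67 in ALDH+ DOX and 13.73 in ALDH+ control cells, a difference of -0.07, whereas the middle one was at 12.27 in ALDH+ DOX and 12.94 in ALDH+ control cells and the 5′ one at 10.17 in ALDH+ DOX and 10.63 in ALDH+ control cells. Those of GAPDH differed by 0.16 (3′) and 0.39 (5′). For the 18S ribosomal RNA, differences were -1.90 at the 3′ end, -1.94 at the 5′ end and -0.30 in the middle. In the ALDH- pair the ACTB and GAPDH differences lay between -0.11 and 0.06. Those of 18S in the ALDH- pair were 0.45 at the 3′ end, 0.20 at the 5′ end and 0.07 in the middle. The part of transcript position, RNA quality or this array's hybridisation in the splicing gene values was not tested, and where along a transcript each probe set lies was not analysed here.

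**Figure D2:**
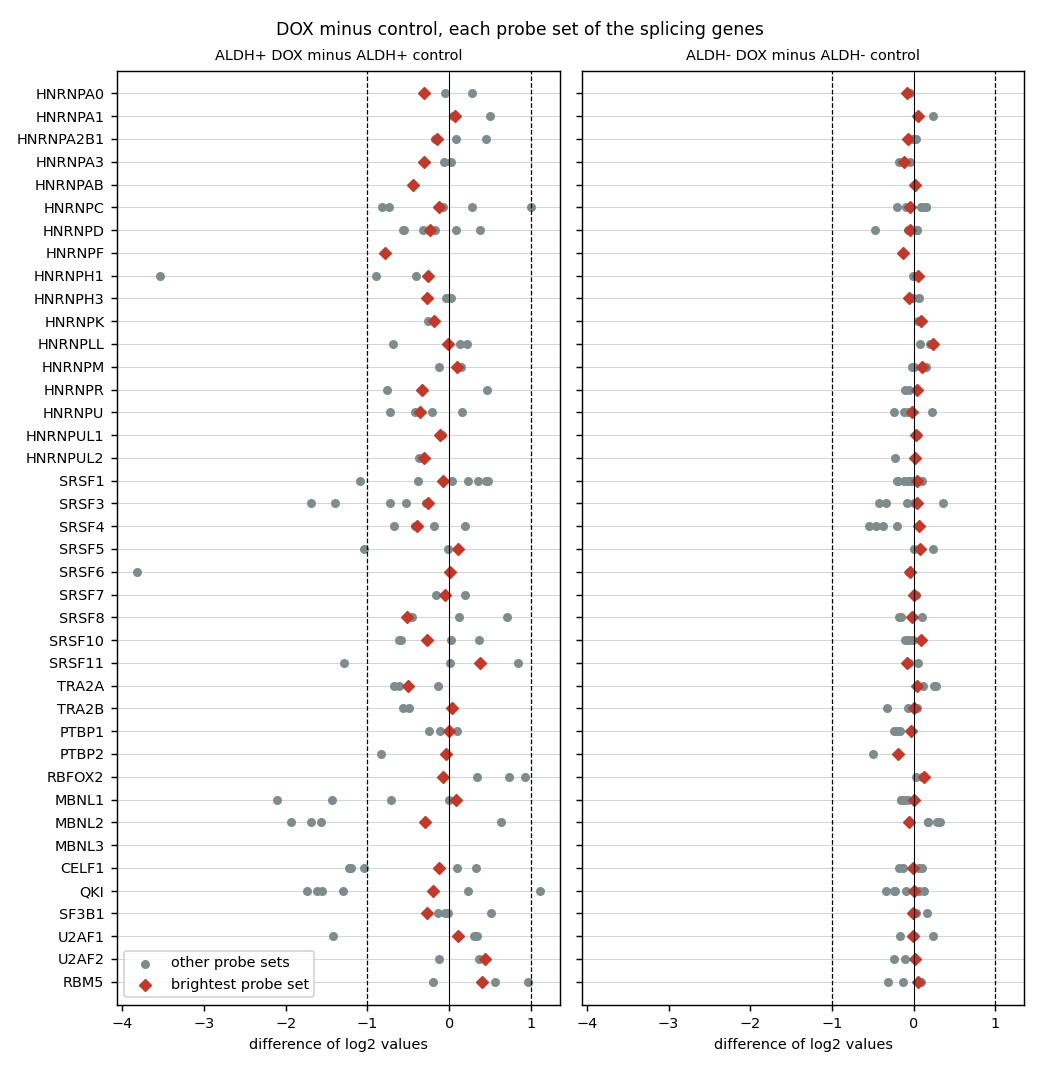
Difference of log2 values, DOX minus control, for every measured probe set of the splicing genes in ALDH+ cells (left) and ALDH- cells (right). Diamonds mark the brightest probe set of a gene and dashed lines mark 2-fold. On the left 20 probe sets lie at or beyond -1 and reach -3.82, and on the right all lie between -0.55 and 0.35.

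In ALDH- cells, the DOX and control arrays lay within 2-fold of each other on every probe set of the splicing genes. None of 155 measured probe sets was called, against 0.22% called higher and 0.0593% lower among all probe sets. Of the 155, 153 lay within 0.5 of 0. The lowest was 239512_at of SRSF4, an SR protein with a long arginine and serine-rich tail, at 8.52 in ALDH- DOX and 9.07 in ALDH- control cells, a difference of -0.55. The SRSF4 probe sets 239511_s_at and 241245_at were at -0.47 and -0.37, and its brightest at 0.06. PTBP2, the neural relative of the polypyrimidine tract repressor PTBP1, had 1554614_a_at at 5.91 in ALDH- DOX and 6.41 in ALDH- control cells, a difference of -0.50. The highest was SRSF3 237485_at, at 0.35. Probe sets of 1 gene lay 1 or more apart in none of 37 splicing genes, against 0.365% of all such genes, and in none of the 23 with 4 or more, against 0.505%.

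The response to DOX was compared between the fractions as the ALDH+ difference minus the ALDH- difference, which has no test with 1 array per group. No splicing gene was called on its brightest probe set, where 3.78% of all genes were called higher and 2.4% lower, shares not matched for level. Of 158 probe sets, 19 were called lower and 3 higher, against 5.75% and 3.81% of all probe sets. SRSF6 206108_s_at differed by -3.82 in ALDH+ and -0.05 in ALDH- cells, HNRNPH1 213470_s_at by -3.54 and -0.01, and MBNL1 201151_s_at by -2.11 and -0.15.

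**Figure D3:**
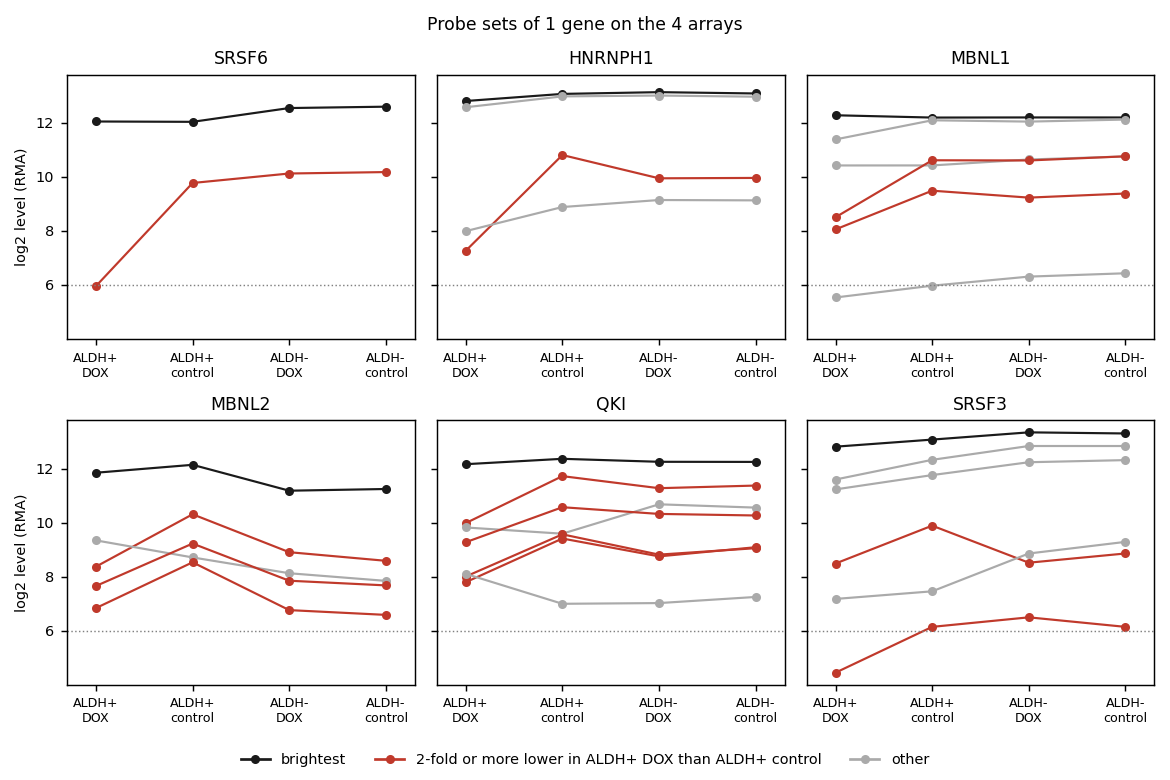
Log2 level (RMA) of each measured probe set of SRSF6, HNRNPH1, MBNL1, MBNL2, QKI and SRSF3 on the 4 arrays, with a line joining the values of 1 probe set and a dotted line at 6. Black marks the brightest probe set, and red those 2-fold or more lower in ALDH+ DOX than in ALDH+ control cells. SRSF6 206108_s_at drops to 5.96 on the ALDH+ DOX array alone, while the red MBNL2 probe sets stand high on the ALDH+ control array alone.

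Of the 39 splicing genes, 13 passed as different between the fractions, each by under 2-fold. Their direction was the same with and without DOX, which is no separate evidence, since both pairs entered the fit that chose them. The brightest probe sets of all measured genes were fitted in limma by a model that adds an ALDH term and a DOX term, each treatment serving as the repeat of the other. At an adjusted p under 0.05, 11 of 39 splicing genes were lower and 2 higher in ALDH+ cells, against 9.58% lower and 13.5% higher among all 12365 genes tested. Their coefficients ran in size from 0.28 to 0.78 on the log2 scale. The shares were not matched for level. Bright genes tended to have smaller standard errors, 0.07 for SRSF1 at a mean level of 13.61 against 0.25 for PTBP2 at 9.39. No excess is therefore read from the shares. The fit left 1 residual degree of freedom per gene, so that the calls rest on the spread borrowed across genes: without its trend on the level, limma called none of the 39, with 1 higher and 2 lower at an unadjusted p under 0.05. With each array centred, 4 were lower and 1 higher. The control transcripts also differed between the fractions: the 3′ minus the 5′ level of GAPDH was 0.33 in ALDH+ DOX and 0.56 in ALDH+ control cells, against 0.98 in ALDH- DOX and 0.87 in ALDH- control cells, and that of ACTB 3.50 in ALDH+ DOX and 3.11 in ALDH+ control cells, against 3.87 in ALDH- DOX and 3.70 in ALDH- control cells. Both ALDH+ arrays lay below both ALDH- arrays in each, and the part of this in the calls was not tested. No label says whether the fractions came from separate cultures, so the p-values describe the scatter of these arrays alone, technical scatter included.

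SR and SR-like genes, 11 of the 39 tested, made up 5 of the 11 lower genes. The rest of these were hnRNP genes, which were 17 of the 39. SRSF6 was at 12.05 in ALDH+ DOX and 12.04 in ALDH+ control cells, against 12.55 in ALDH- DOX and 12.60 in ALDH- control cells, a coefficient of -0.53 ± 0.12 (SE, limma adjusted p = 0.00658). The SRSF6 groups did not overlap. SRSF7, an SR protein with a zinc knuckle, was at 11.95 in ALDH+ DOX and 12.003 in ALDH+ control cells, against 12.49 in ALDH- DOX and 12.48 in ALDH- control cells (-0.51 ± 0.12 SE, limma adjusted p = 0.0101). SRSF1 was at 13.40 in ALDH+ DOX and 13.47 in ALDH+ control cells, against 13.81 in ALDH- DOX and 13.77 in ALDH- control cells (-0.35 ± 0.07 SE, limma adjusted p = 0.00245). In each of these genes both ALDH+ arrays lay below both ALDH- arrays, an order that passing the model makes likely.

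SRSF3 was at 12.82 in ALDH+ DOX and 13.08 in ALDH+ control cells, against 13.35 in ALDH- DOX and 13.31 in ALDH- control cells (-0.38 ± 0.09 SE, limma adjusted p = 0.0105). TRA2B, an SR-like activator of exons with GAA repeats, was at 12.53 in ALDH+ DOX and 12.49 in ALDH+ control cells, against 12.82 in both ALDH- arrays (-0.31 ± 0.10 SE, limma adjusted p = 0.0423). SRSF3 leaned on the ALDH+ DOX array, with the DOX arrays at -0.53 and the control arrays at -0.23, and its brightest probe set without a shared name ending (_s_at or _x_at), 232392_at, had a coefficient of 0.50 that did not pass. TRA2A (-0.42), SRSF8 (-0.44), SRSF10 (-0.37) and SRSF4 (-0.17) had negative coefficients that did not pass, and SRSF5 (0.26) and SRSF11 (0.05) positive ones that did not.

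Among the hnRNP genes, HNRNPM had the smallest p. It was at 12.91 in ALDH+ DOX and 12.82 in ALDH+ control cells, against 13.35 in ALDH- DOX and 13.24 in ALDH- control cells (-0.43 ± 0.08 SE, limma adjusted p = 0.00297), and HNRNPM is known as a regulator of splicing in mesenchymal breast cancer cells. HNRNPAB was at 12.15 in ALDH+ DOX and 12.59 in ALDH+ control cells, against 12.84 in ALDH- DOX and 12.82 in ALDH- control cells (-0.47 ± 0.12 SE, limma adjusted p = 0.0158). The HNRNPAB coefficient leaned on the ALDH+ DOX array: the DOX arrays differed by -0.69 and the control arrays by -0.24.

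HNRNPA0 (-0.36), HNRNPR (-0.32), HNRNPD (-0.29) and HNRNPA2B1 (-0.28) also passed as lower, with limma adjusted p between 0.0217 and 0.0423. HNRNPA0 was at 12.26 in ALDH+ DOX and 12.57 in ALDH+ control cells, against 12.73 in ALDH- DOX and 12.81 in ALDH- control cells. HNRNPR was at 12.60 in ALDH+ DOX and 12.94 in ALDH+ control cells, against 13.11 in ALDH- DOX and 13.07 in ALDH- control cells. For HNRNPR the DOX arrays differed by -0.51 and the control arrays by -0.13, and for HNRNPA0 by -0.47 and -0.24. HNRNPD, which binds AU-rich mRNA, was at 12.63 in ALDH+ DOX and 12.86 in ALDH+ control cells, against 13.02 in ALDH- DOX and 13.06 in ALDH- control cells. HNRNPA2B1, a reader of short RNA motifs in splicing and RNA transport, was at 13.03 in ALDH+ DOX and 13.17 in ALDH+ control cells, against 13.35 in ALDH- DOX and 13.41 in ALDH- control cells, while its unshared 225107_at had a coefficient of 0.084 that did not pass.

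MBNL2 and HNRNPA1 were the genes higher in ALDH+ cells. MBNL2 was at 11.85 in ALDH+ DOX and 12.15 in ALDH+ control cells, against 11.19 in ALDH- DOX and 11.25 in ALDH- control cells (0.78 ± 0.16 SE, limma adjusted p = 0.00386). HNRNPA1, an hnRNP that silences exons, was at 12.73 in ALDH+ DOX and 12.66 in ALDH+ control cells, against 12.30 in ALDH- DOX and 12.25 in ALDH- control cells (0.42 ± 0.11 SE, limma adjusted p = 0.0146). HNRNPA1 has many processed copies in the genome, and its probe set 214280_x_at is of a kind that can match several transcripts. Its other probe sets, 222040_at and 221919_at, were higher too, by 0.67 and 0.31 between the control arrays. Brighter probe sets shared between HNRNPA1 and its copies were not: 200016_x_at was at 13.70 in ALDH+ DOX and 13.89 in ALDH+ control cells, against 13.85 in ALDH- DOX and 13.84 in ALDH- control cells, so that the direction for HNRNPA1 is uncertain. The DOX term passed in none of the 39 genes by limma, with and without the trend, and none had an unadjusted p under 0.05 with it. Of all genes 0.00809% were called higher by the DOX term and 0% lower. A DOX response that differs by fraction enters the error of that term.

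**Figure D4:**
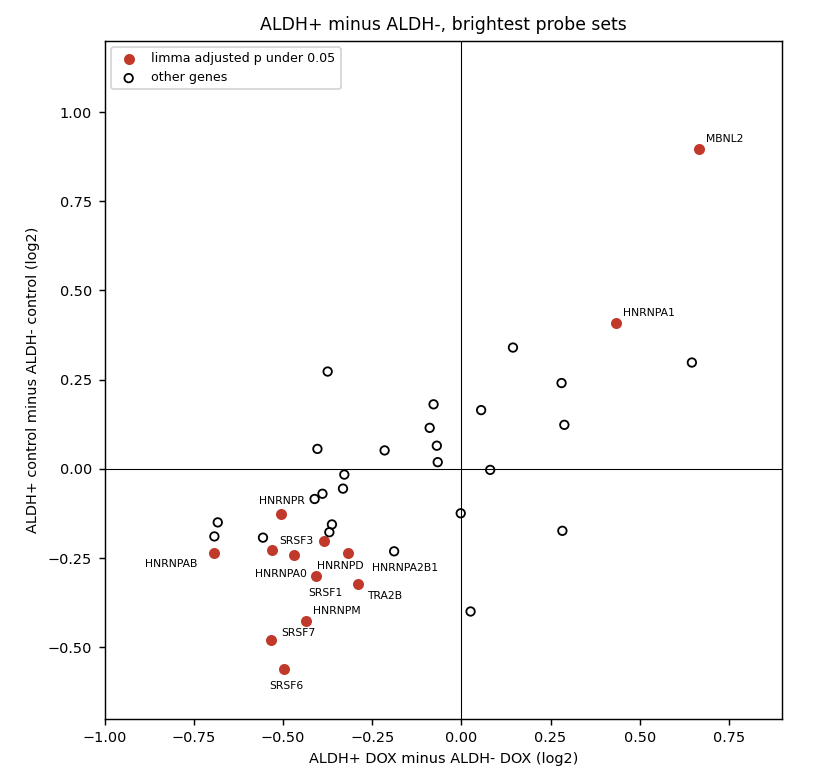
Difference of log2 values, ALDH+ minus ALDH-, of the brightest probe set of 39 splicing genes, in the DOX arrays (x axis) and in the control arrays (y axis), which share no array. Filled points are the 13 genes with a limma adjusted p under 0.05, of which 11 lie below 0 and 2, MBNL2 and HNRNPA1, above 0 on both axes. Both differences entered the fit that chose these genes.

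Some other probe sets of these genes differed more between the fractions. When every probe set was fitted and p-values were adjusted over all 24852 measured probe sets, 20 probe sets of the splicing genes were lower and 6 higher in ALDH+ cells, from 15 genes, against 6.08% and 7.23% of all probe sets. Neither share was matched for level. In that fit 9 of the 13 genes passed on their brightest probe set and 4 did not, with limma adjusted p of 0.0635 for HNRNPA0, 0.072 for HNRNPD, 0.0721 for TRA2B and 0.0881 for HNRNPR. Of the 41 other probe sets of the 13 genes, 32 had a coefficient of the same sign as the brightest, a count with no background set beside it. Passing as lower were further probe sets of SRSF3 (202899_s_at at -0.88 and 208673_s_at at -0.78), SRSF7 (201129_at at -0.83) and HNRNPM (200072_s_at at -0.64), and 222040_at of HNRNPA1 passed as higher (0.68). HNRNPU, a scaffold protein of nuclear RNA, passed on 225805_at (-0.87 ± 0.23 SE, limma adjusted p = 0.0409) and not on its brightest probe set (-0.25). The largest that passed were SRSF3 235324_at (-1.76 ± 0.27 SE, limma adjusted p = 0.00705) and TRA2B 239447_at (-1.72 ± 0.28 SE, limma adjusted p = 0.00879). SRSF3 235324_at was at 7.18 in ALDH+ DOX and 7.46 in ALDH+ control cells, against 8.86 in ALDH- DOX and 9.29 in ALDH- control cells. TRA2B 239447_at was at 5.61 in ALDH+ DOX and 5.81 in ALDH+ control cells, against 7.27 in ALDH- DOX and 7.59 in ALDH- control cells. TRA2B 239447_at was thus below 6 on both ALDH+ arrays. Both probe sets stood more than 2-fold lower in each pair, beside a brightest probe set that was lower by under 1.5-fold.

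SRSF10, which acts as a repressor when its tail loses phosphate, had a further such probe set. Its 225348_at was at 9.76 in ALDH+ DOX and 9.40 in ALDH+ control cells, against 10.81 in ALDH- DOX and 10.88 in ALDH- control cells (-1.27 ± 0.24 SE, limma adjusted p = 0.0144). SRSF1 had probe sets that passed in both directions: 201741_x_at (-1.35), 227164_at (-1.06), 208863_s_at (-0.46) and 211784_s_at (-0.35) were lower, whereas 226419_s_at was higher by 0.70 ± 0.16 (SE, limma adjusted p = 0.0287). The last was at 12.45 in ALDH+ DOX and 11.997 in ALDH+ control cells, against 11.49 in ALDH- DOX and 11.55 in ALDH- control cells. In the other direction, 227164_at was at 10.54 in ALDH+ DOX and 10.06 in ALDH+ control cells, against 11.34 in ALDH- DOX and 11.38 in ALDH- control cells. In SRSF11, 213742_at passed as higher (0.93 ± 0.25 SE, limma adjusted p = 0.0456), and in QKI 212636_at as lower (-0.91 ± 0.23 SE, limma adjusted p = 0.0377).

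By the 2-fold rule, 5 of 158 probe sets were higher and 4 lower between ALDH+ control and ALDH- control cells, against 5.9% and 5.19% of all probe sets. The higher ones were 205017_s_at (1.95), 205018_s_at (1.72) and 1553536_at (1.55) of MBNL2, 236948_x_at of SRSF11 (1.28, or 0.59 with levels under 6 set to 6) and 232392_at of SRSF3 (1.03). The lower ones were 235324_at of SRSF3 (-1.83), 239447_at of TRA2B (-1.79), 225348_at of SRSF10 (-1.48) and 227164_at of SRSF1 (-1.32). Probe sets of 1 gene lay 1 or more apart in 12 of 37 splicing genes, against 11.9% of all such genes, and in 11 of 25 genes with 4 or more probe sets, against 25.2%. A brightest probe set that was not called stood beside another called higher in 3 of 37, against 5.07%, and beside another called lower in 4 of 37, against 6.77%. Neither share was matched for the number of probe sets.

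Among these 12 genes, TRA2A, the relative of TRA2B, had its brightest probe set at -0.15 and the dimmer 229574_at and 227939_s_at at 0.98 and 0.93. Its 229574_at was at 9.48 in ALDH+ DOX and 10.15 in ALDH+ control cells, against 9.42 in ALDH- DOX and 9.17 in ALDH- control cells, high on the ALDH+ control array alone. HNRNPD ranged between -0.80 (229129_at) and 0.42 (213359_at), HNRNPC between -0.83 (227110_at) and 0.30 (200751_s_at), and QKI between -0.97 (212636_at) and 0.51 (214543_x_at). HNRNPR ranged between -0.97 (232004_at) and 0.05 (208765_s_at), and HNRNPH1 between -0.25 (213472_at) and 0.85 (213470_s_at), none of them called.

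Between ALDH+ DOX and ALDH- DOX cells, 7 of 155 probe sets were higher and 17 lower, against 10.2% and 8.54% of all probe sets. RBFOX2 213901_x_at was the highest, at 8.28 in ALDH+ DOX and 6.77 in ALDH- DOX cells, a difference of 1.51, with 213898_at at 1.30. RBM5 230742_at (1.41), SRSF11 213742_at (1.38), MBNL2 232138_at (1.22), QKI 241938_at (1.08) and HNRNPC 235500_at (1.04) followed. SRSF6 206108_s_at was the lowest at -4.17, then HNRNPH1 213470_s_at (-2.68), MBNL1 201151_s_at (-2.10), SRSF3 237485_at (-2.05, or -0.50 with levels under 6 set to 6) and SRSF1 201741_x_at (-1.80). HNRNPLL, an hnRNP known for CD45 splicing in lymphocytes, had 1554453_at at 6.34 in ALDH+ DOX and 7.59 in ALDH- DOX cells, a difference of -1.25. Probe sets lay 1 or more apart in 18 of 36 splicing genes, against 28.4% of all, and in 15 of 24 genes with 4 or more probe sets, against 55.8%. A brightest probe set that was not called stood beside another called lower in 11 of 36, against 16.1%, and beside another called higher in 6 of 36, against 9.16%. Here too the shares were not matched for the number of probe sets. This comparison shares the ALDH+ DOX array with the DOX comparison in ALDH+ cells.

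Promoters of SRSF1, SRSF3 and SRSF6 are shown as examples of SR genes whose brightest probe set passed as lower in ALDH+ cells. Some other probe sets of SRSF1 and SRSF3 had positive coefficients, and whether the genes share a regulator was not tested. The sequences come from RefSeq on GRCh38.p14, each 300 bases long and spanning a transcript's start. Capitals mark matches on either strand to the CCAAT box (CCAAT), the GC box (GGGCGG), the TATA box (TATAAA), an ETS-type motif (CCGGAAG) and the E-box (CACGTG), with no overlap between matches in these windows. A match is a description of letters and not a site.
SRSF1 (chr17:58007197-58007496, minus strand): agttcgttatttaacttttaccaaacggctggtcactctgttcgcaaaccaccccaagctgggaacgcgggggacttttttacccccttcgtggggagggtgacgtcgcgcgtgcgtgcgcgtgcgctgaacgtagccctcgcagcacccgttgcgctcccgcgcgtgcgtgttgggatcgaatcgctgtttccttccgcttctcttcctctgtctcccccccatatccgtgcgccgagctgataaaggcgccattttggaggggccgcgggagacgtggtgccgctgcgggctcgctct
SRSF3 (chr6:36594112-36594411, plus strand): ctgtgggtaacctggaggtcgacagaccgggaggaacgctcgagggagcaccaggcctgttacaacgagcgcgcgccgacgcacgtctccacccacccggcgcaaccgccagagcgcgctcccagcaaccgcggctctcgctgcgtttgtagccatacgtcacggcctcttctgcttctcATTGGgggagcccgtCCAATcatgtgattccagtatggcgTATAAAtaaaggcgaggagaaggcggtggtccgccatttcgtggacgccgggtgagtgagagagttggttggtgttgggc
SRSF6 (chr20:43457646-43457945, plus strand): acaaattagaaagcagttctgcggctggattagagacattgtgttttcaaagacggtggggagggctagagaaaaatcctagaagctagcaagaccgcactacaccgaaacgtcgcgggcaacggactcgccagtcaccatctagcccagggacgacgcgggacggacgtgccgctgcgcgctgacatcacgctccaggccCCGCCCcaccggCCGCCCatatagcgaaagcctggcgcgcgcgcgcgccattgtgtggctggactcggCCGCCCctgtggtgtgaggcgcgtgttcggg
SRSF3 held 2 matches to CCAAT and 1 to TATAAA, SRSF6 held 3 to GGGCGG, and SRSF1 held none of the 5 motifs. Of the 61 promoters tabulated for 37 of the listed genes, 41.0% held CCAAT, 52.5% GGGCGG, 13.1% TATAAA, 13.1% CCGGAAG and 14.8% CACGTG. Among all 35116 promoters of that length, these shares were 34.6%, 45.0%, 11.5%, 10.3% and 7.26%.

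The rest of the splicing machinery was set beside these genes by lists of core spliceosome proteins, kinases and other regulators. In ALDH+ cells after DOX, 2 of 25 snRNP and Sm or LSm genes were called lower, SNRNP40 of the U5 particle (-2.54) and LSM6 (-1.09), with a list median of 0.03, where 2.3% of all genes were called lower and 3.47% higher. None of 16 U2 and branch-site genes, 28 U5, tri-snRNP and Prp19 genes or 8 SR protein kinase and phosphatase genes was called, with medians of 0.11, 0.31 and 0.20. Of 38 other RNA-binding regulators, HNRNPL (-3.71) and FUBP1 (-1.62) were called lower, with a median of -0.09. HNRNPL, which binds CA repeats, was at 9.04 in ALDH+ DOX and 12.75 in ALDH+ control cells, against 12.89 in ALDH- DOX and 12.84 in ALDH- control cells. Of 16 exon junction and SR-related genes, the export adaptor ALYREF (-2.22) and THRAP3 (-1.36) were called lower, with a median of -0.03. No gene of these lists was called in ALDH- cells after DOX. Each gene of the lists stood on its brightest probe set, and the probe sets within such a gene were not compared.

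For the ALDH term the additive limma model called 7 of 25 snRNP and Sm or LSm genes lower and none higher, with a median coefficient of -0.31, against 0.03 over all genes and -0.19 over the 39 splicing genes. Of all genes tested 9.58% were lower and 13.5% higher. These shares were set beside each of the lists but were not matched for level, so no excess is read from the counts. SNRNP25 of the minor spliceosome (-1.06 ± 0.22 SE, limma adjusted p = 0.00505) and SNRPA1 (-0.72 ± 0.14 SE, limma adjusted p = 0.00382) were among the 7 lower snRNP and Sm or LSm genes. LSM6 (-0.82) was too, but leaned on the ALDH+ DOX array, with the DOX arrays at -1.33 and the control arrays at -0.32. Of the exon junction and SR-related genes, 5 of 16 were lower and none higher, among them ALYREF (-1.95, with the DOX arrays at -3.07 and the control arrays at -0.84), DDX39A (-1.04) and MAGOHB (-0.99). Other RNA-binding regulators went both ways, with 8 of 38 lower and 4 higher. HNRNPL was at -1.97, though its control arrays differed by -0.09, and FUBP1 at -1.01, though its control arrays differed by -0.21. RBM47 was at -1.38 and PSPC1 at -1.19, while NOVA2 was at 1.27 and RBM4 at 0.93. ESRP1, an epithelial splicing regulator, passed as higher too, but was below 6 in ALDH- cells, and with levels under 6 set to 6 it differed by 0.87 between the DOX arrays and 0.99 between the control arrays. Of the U5, tri-snRNP and Prp19 genes 2 of 28 were lower and 2 higher, of the U2 genes 1 of 16 was lower, and of 8 kinase and phosphatase genes none passed.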

How the data were processed

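Total RNA of 4 samples, 1 for each group, was hybridised to Affymetrix arrays. The authors deposited log2 levels per probe set, with RMA named in the submitters' processing notes and no version stated there. RMA corrects background and normalises quantiles between arrays, so that levels are relative within the set. The 4 arrays had medians between 6.18 and 6.22, and their number limits the precision. Values were used without further scaling. Of 54675 probe sets, 41097 were annotated to 1 gene, 1801 to several and 11721 besides the 62 controls to none, by an array annotation of 2016 with symbols updated by gene identifier.

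The brightest probe set annotated to a gene alone stood for the gene. Differences were called at an absolute log2 value of 1 with a level of 6 on at least 1 array. The additive model used lmFit and eBayes with trend of limma 3.58.1 in R 4.3.3, with a prior of 11.6 degrees of freedom, two-sided p-values and Benjamini-Hochberg adjustment over 12365 genes. A fit of every probe set was added after seeing the data. Calculations used Python 3.11.15, numpy 2.4.6 and pandas 2.3.3, and the steps were tested on simulated data. The simulated spread came from the ALDH- pair and was equal at all levels, so it does not measure false calls in these arrays. Members, lists, tests and alternatives were chosen with earlier results of these data known. Named are members called or passing, those with probe sets 1 or more apart within a pair (up to 15), the 3 of smallest range, and up to 4 called genes per list, some others by range. Members chosen to illustrate the additive fit of single probe sets, and list genes of its ALDH term, were picked after their values were seen.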

Additional observations from a re-analysis of the deposited data

Results flagged for a closer look

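In 22 of 158 probe sets of the splicing genes the DOX differences of the 2 fractions lay 1 or more apart. They were 19 lower and 3 higher in ALDH+ cells, against 5.75% and 3.81% of all probe sets. Of the 22, 13 probe sets of 8 genes had opposite signs in the fractions. With 1 array per group this was not tested, and no share over all probe sets was computed for opposite signs. The ALDH- differences of the 13 were between 0.06 and 0.35 in size, so small that their sign carries little. The ALDH+ difference minus the ALDH- difference was -2.26 for 205018_s_at, -1.87 for 205017_s_at and -1.74 for 1553536_at of MBNL2. For SRSF3 237485_at it was -2.05, for SRSF11 236948_x_at -1.44, for CELF1 235297_at -1.38 and for SRSF5 210077_s_at -1.29, each at a level under 6 in ALDH+ DOX cells. CELF1 235297_at and SRSF11 236948_x_at reached 6 on the ALDH+ control array alone. It was -1.33 for 1555467_a_at and -1.11 for 204113_at of CELF1, and -1.35 for 212262_at of QKI. Above 0 it was 1.33 for QKI 241938_at, 1.27 for RBM5 230742_at and 1.22 for HNRNPC 235500_at.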

How the results depend on the processing

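No paired analysis was possible because each group held 1 array, so that a replicate number names a sample and pairs nothing. With 1 array per group no replicate could be left out. Without the ALDH+ DOX array, an alternative added after seeing the data, the additive model has no residual degree of freedom. The control pair alone kept the direction of all 13 genes, but that pair was part of the fit that chose them. The alternatives for the difference between fractions were also added after seeing the data. Of the 13 genes that passed the ALDH term, 13 passed also at a level of 7, 5 with each array centred, 4 without a filter on level, 1 with all probe sets of a gene averaged and none without the trend. Without shared probe sets (names ending in _x_at or _s_at), 7 passed of the 11 genes that could be fitted, since SRSF6 and HNRNPAB have no other probe set. The cause was not tested. The counts lower and higher were 0 and 0 without the trend, 4 and 1 when centred, 3 and 1 without the filter, 2 and 0 with the mean, and 6 and 2 without shared probe sets. Over these settings the adjusted p of SRSF1 ran between 0.00037 and 0.299, and that of MBNL2 between 0.000895 and 0.0967. Without shared probe sets SRSF3 was at 0.50 and HNRNPA2B1 at 0.084 on the ALDH term, on other probe sets and with neither passing.

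For the 2-fold calls on genes, without shared probe sets SRSF3 was called lower in ALDH+ DOX against ALDH+ control cells (1 gene) and in the difference between fractions (1 gene). SRSF3 was called higher (1 gene) and SRSF1 lower (1 gene) between the control fractions, and RBFOX2 higher between the DOX fractions (1 gene). With probe sets averaged, SRSF6 (-1.90) and HNRNPH1 (-1.28) were called lower in ALDH+ cells after DOX (2 genes), MBNL2 (1.40) higher between the control fractions (1 gene), and SRSF6, HNRNPH1 and SRSF3 lower between the DOX fractions (3 genes). The difference between fractions then called 3 genes lower. For probe sets in ALDH+ cells after DOX, leaving out shared ones gave 11 lower, which follows from fewer being compared, and centring gave 0 higher. Without shared probe sets 2 were higher between the control fractions and 10 lower between the DOX fractions.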

Other observations

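Probe sets annotated to several genes were left out of the comparisons, and they hold SRSF2 and HNRNPH2. SRSF2, an SR protein whose probe sets are also annotated to the microRNA gene MIR636, was at 12.90 in ALDH+ DOX and 13.03 in ALDH+ control cells, against 13.47 in ALDH- DOX and 13.54 in ALDH- control cells, on 200754_x_at. Its 200753_x_at was at 10.37 in ALDH+ DOX and 10.64 in ALDH+ control cells, against 11.43 in ALDH- DOX and 11.36 in ALDH- control cells. Both ALDH+ arrays lay below both ALDH- arrays on all 3 SRSF2 probe sets. These probe sets were read on the same arrays, and no share over all probe sets was computed for such an order. Whether SRSF2 differs between the fractions was not tested. HNRNPH2 was at 11.26 in ALDH+ DOX and 11.17 in ALDH+ control cells, against 11.36 in both ALDH- arrays. A probe set of HNRNPUL2, 66053_at, also annotated to a readthrough gene, was at 9.12 in ALDH+ DOX and 10.55 in ALDH+ control cells, against 10.55 in ALDH- DOX and 10.41 in ALDH- control cells, whereas the gene's own probe sets differed by -0.31 and -0.36 in ALDH+ cells. For PTBP1, 212016_s_at was at 7.96 in ALDH+ DOX and 9.0 in ALDH+ control cells, against 8.41 in ALDH- DOX and 8.81 in ALDH- control cells.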
